A study of Mus musculus with 16 samples.

Results

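Testis RIKEN clone genes are mouse genes still named after full-length cDNA clones of the RIKEN project, with the clone prefixes 1700, 4921, 4930, 4931, 4932 and 4933. Members were all genes with such a symbol and a normalized value of 20 or more in at least 2 of the 16 libraries, which gave 112 of 950 genes with such a symbol and of 35920 genes in the table. Of the other 838, 66 were at 0 in every library. The choice used the measured values, so a member had to be present somewhere, and which libraries carried it over the level of 20 is a description and not a finding. RNA of whole mouse testis was passed over J2, a mouse monoclonal antibody that binds double-stranded RNA, and the captured RNA (J2) and the RNA left unbound (flow-through) were sequenced as separate strand-specific libraries. The groups were wild type at postnatal day 18 (P18), Dicer knock-out of the same age (genotype Dcr-/-) and wild-type adult, each with 3, 3 and 2 libraries per fraction in that order. The labels give the strain C57BL/6 x 129S4/SvJae for all P18 mice and "unknown" for the adult mice, and strain cannot be told apart from age. They name no promoter or cell type for the Dicer deletion, and they do not say that libraries of a group came from separate animals, so the p-values measure the spread between these libraries, which may be technical.

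The RIKEN clones with these prefixes were taken from testis cDNA, and many of the loci have since proved to be protein-coding genes or long noncoding RNAs used mainly in germ cells. Male germ cells pass from spermatogonia through meiotic spermatocytes to haploid spermatids, and spermatids switch on a large set of genes for the sperm head and tail. In the first wave of spermatogenesis of a young mouse, the testis around P18 holds spermatocytes and few haploid cells, whereas the adult testis holds every stage. J2 recognises long stretches of double-stranded RNA whatever their sequence, and Dicer is the nuclease that cuts such RNA into small RNAs.

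Of the 112 members, 66 carry the prefix 1700, 19 carry 4930, 15 carry 4933, 6 carry 4921, and 3 each carry 4931 and 4932. The RefSeq annotation of GRCm38.p6 held 103 of them: 71 protein-coding genes, 28 long noncoding RNAs (lncRNAs) and 4 pseudogenes. The other 9 had no entry. They lie on 20 chromosomes, from 11 members on chromosome 3 to 2 each on chromosomes 15, 16 and 18, with 3 on the X. The loci are short, with a median span of 10168 bp against 27636 bp over the genes of any name that met the same level rule (6562 genes, of which 6304 had a span). Another gene lay across the opposite strand of 22 of the 91 members with a known strand (24.2%), against 1523 of 5071 genes (30.0%). At the level of 20, the second highest value was 20.4 for 1700027A15Rik, 20.5 for 1700013F07Rik and 21 for 1700034E13Rik, which are members, and 19.9 for 4930442J19Rik, 19.9 for 1700030N03Rik and 19.8 for 4930589P08Rik, which are not.

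The libraries differed in what 1 read was worth, judged from the steps between low values: 2.0 to 8.31 units in flow-through and 0.116 to 0.516 units in J2. The value 20 therefore stood for about 2.41 to 9.98 flow-through reads, and for 38.7 to 173 J2 reads. A value of 0 allows up to 3 reads, which are 6.01 to 24.9 units in the P18 flow-through libraries and 0.600 to 1.55 units in the P18 J2 libraries (counting error only). Dicer1, the targeted gene, was at 5.10, 12.4 and 0 in wild-type and 0, 3.68 and 8.33 in knock-out flow-through, and at 11.3, 0 and 8.64 against 3.39, 0 and 0 in J2, so at this depth it does not separate the P18 genotypes. Of the cell markers, 15 spermatid genes summed to 3290 and 3345 in adult flow-through against 46.7 to 133 in the 6 P18 flow-through libraries, and to 3528 and 2433 in adult J2 against 59.9 to 523 in the P18 J2 libraries. All 15 were above 0 in at least 1 adult library of each fraction, whereas Acrv1, Gapdhs, Odf1, Spaca1, Tnp1 and Tssk2 were at 0 in wild-type P18 flow-through. The 10 spermatocyte markers summed to 570 to 986 in adult flow-through against 515 to 873 at P18, and to 1251 to 1391 in adult J2 against 624 to 2093. Red cell markers went the other way, with sums of 11.4 to 17.0 in adult flow-through against 78.1 to 310 at P18. In J2, Sertoli sums were also lower in adult (69.6 to 158 against 208 to 504). So were peritubular myoid sums (9.77 to 11.1 against 73.3 to 331) and spermatogonial sums (11.4 to 17.2 against 35.4 to 171). In flow-through these lists overlapped between the ages, and Leydig and macrophage sums overlapped in both fractions.

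The members' summed normalized values were higher in the adult libraries, in part because the level rule admitted 47 of them through those libraries alone. The sums were 2616 and 3111 in adult flow-through against 930 to 1606 in the 6 P18 flow-through libraries, and 5748 and 4474 in adult J2 against 1222 to 3130 in the 6 P18 J2 libraries. These sums do not overlap between the ages, but as a share of all units the flow-through libraries do (0.0229% and 0.0248% in adult, 0.00295% to 0.0265% at P18). Over the 55 members that met the level within P18, the sums were 1579 and 1613 in adult flow-through against 829 to 1426, without overlap, and 2677 and 2163 in adult J2 against 1136 to 2798, which overlap. Over all 112, the median member stood at 16.7 and 20.1 in adult flow-through and at 29.4 and 27.7 in adult J2, and between 0 and 6.89 in every P18 library. In whole testis, more cells that carry a transcript and more of it per cell cannot be told apart, and the part that the spermatid markers' difference has in these sums was not tested.

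**Figure D1:**
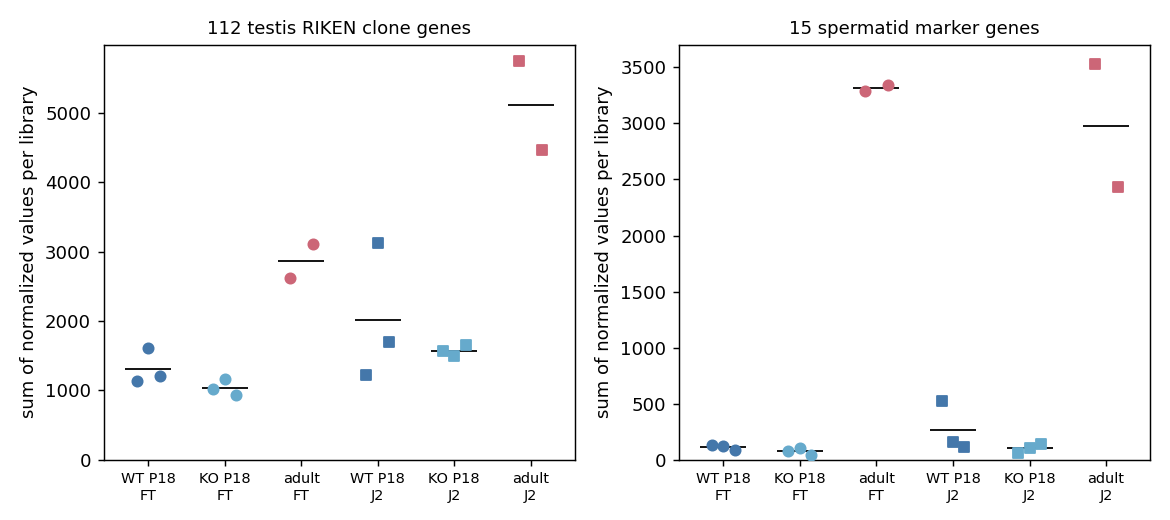
Sum of normalized values per library over the 112 testis RIKEN clone genes (left) and over 15 spermatid marker genes (right), by condition (WT, wild type; KO, Dicer knock-out) and fraction (FT, flow-through); points are libraries and bars are group means. Both sums are higher in the 2 adult libraries of a fraction than in any of its 6 P18 libraries.

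By age, the members formed 3 classes. The level of 20 was met in 2 P18 libraries by 55 members (49.1%, against 82.7% of the 6562 genes). Of these, 34 also met it in 2 adult libraries (30.4% of members, against 33.7% of genes) and 21 did not (18.8%, against 49.0%). Another 47 met it in the adult libraries but not within P18 (42.0%, against 641 or 9.77% of the 6562 genes). The other 10 met it only by counting over both ages (8.93%, against 7.53%). In all, 16 members (14.3%) were at 0 in all 12 P18 libraries, against 105 genes (1.60%) of any name and 0 of the 59 RIKEN clone genes with other prefixes that met the same rule. At the other end, 12 members (10.7%) were above 0 in all 16 libraries, against 1491 of the 6562 genes (22.7%).

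**Figure D2:**
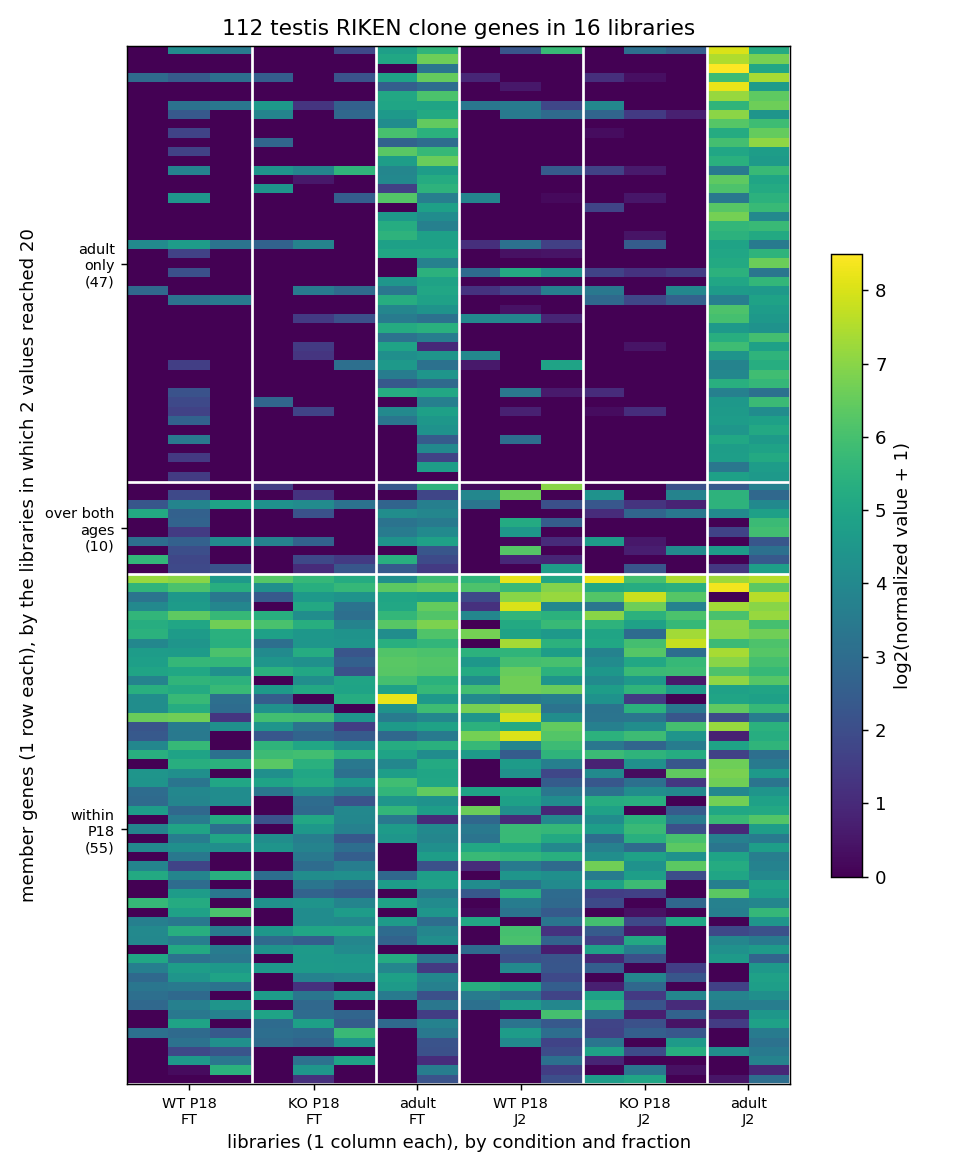
Normalized values of the 112 members on a log2(value + 1) scale, 1 row per gene and 1 column per library, with rows grouped by the libraries in which 2 values reached 20. The upper 47 rows are near 0 at P18 and bright in the adult columns, which follows from the grouping, and the lower 55 rows have values at P18 and vary in adult, where 34 of them also reached the level.

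Members present at both ages came first by mean value over the 6 groups. These values are not per length, so no order of abundance is drawn between them. 1700123L14Rik, a transcribed pseudogene that the annotation links to the nucleoporin Nup50, was at 46.3, 68.0 and 39.4 in wild-type P18 flow-through, 18.0, 38.9 and 49.3 in knock-out, and 81.4 and 92.3 in adult. In J2 it was at 69.4, 53.2 and 120 in wild type, 33.7, 37.4 and 40.5 in knock-out, and 323 and 81.7 in adult. It was above 0 in every library, and reads shared with Nup50 could move these values. 4932438A13Rik, the large protein-coding gene also called Kiaa1109 or Tweek, known for a role in lipid transfer between membranes, was at 145, 125 and 23.5 in wild-type P18 flow-through and at 17.9 and 56.3 in adult flow-through. In J2 it was at 46.4, 292 and 31.6 in wild type, 310, 63.0 and 175 in knock-out, and 152 and 186 in adult. The adult J2 libraries lay above the adult flow-through libraries by 2.36 on the log2 scale (SE 1.12), which did not pass (limma adjusted p = 0.75).

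Most of the other 13 members of this kind varied several-fold between libraries of 1 group. The lncRNA 4933440M02Rik was at 2.68, 127 and 145 in wild-type J2 and at 0 and 190 in adult J2. 1700074P13Rik, a serine protease gene also called Tryx5, was at 1.34, 257 and 14.7 in wild-type J2. The protein-coding gene 4933409G03Rik was at 298 in 1 adult flow-through library and at 22.8 in the other. Such spreads leave wide errors on any difference. By contrast 1700029P11Rik stayed between 23.1 and 99.8 in all 16 libraries, with wild-type J2 values of 61.3, 99.8 and 93.6 above the knock-out values of 25.4, 46.5 and 23.1 and the adult values of 28.0 and 30.2. Its adult J2 difference was -1.48 on the log2 scale (SE 0.75), with a limma adjusted p of 0.44. The lncRNAs 1700029M20Rik, 1700001L05Rik, 1700008K24Rik and 1700028J19Rik, the protein-coding genes 4930453N24Rik, 1700010I14Rik, 4930544G11Rik and 1700029F12Rik, and 4933415F23Rik, which has no RefSeq entry, also belong here, and none of these 9 passed the test in any comparison. 4930447C04Rik (Six6os1), a central element protein of the synaptonemal complex, was at 0, 22 and 9.46 in wild-type P18 flow-through and at 0 and 1.12 in adult, which overlap.

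The comparison of adult with wild-type P18 asks which transcripts differ between a testis with all germ cell stages and one in the first wave. In J2, 34 of the 102 members tested were higher in adult and 0 lower, by limma at an adjusted p under 0.05, where 5.07% of the 6882 genes tested were higher and 0.392% lower. In flow-through, 18 of 83 were higher and 0 lower, where 3.08% of 7141 genes were higher and 0.154% lower. At an unadjusted p under 0.05, 40 members were higher and 1 lower in J2, against 736 and 232 of 6882 genes. In flow-through 25 members were higher and 0 lower, against 599 and 237 of 7141 genes. The level rule had picked out most of the members called at the adjusted p: 33 of the 34 and 17 of the 18 had met it in the adult libraries only. Of the 55 members that met it within P18, 0 were called. Counts over tested members therefore describe them and support nothing. In all, 15 members were called in both fractions (83.3% of the flow-through calls and 44.1% of the J2 calls). The 3 called in flow-through alone, 1700001O22Rik, 1700013F07Rik and 4930558C23Rik (also called Ctxnd2), were picked out for this after their values were seen.

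Choosing members in 1 fraction and reading them in the other keeps the libraries that are read out of the choice of members. That choice still used the adult libraries of the first fraction. Members could enter through adult values, so the level rule keeps a part in these counts. The limma counts are further limited to genes that passed the filter on low values in the fraction read. The libraries that are read, adult ones included, therefore had a part in which genes were tested. Of the 58 members that met the level within flow-through, both adult J2 libraries lay above all 6 P18 J2 libraries for 23 (39.7%), against 10.9% of the 4160 genes of any name chosen in the same way, and below all 6 for 0, against 4.62%. By limma, 11 of the 50 of them tested in J2 were higher (22%, against 3.56%). Of the 84 that met the level within J2, the adult flow-through libraries lay above all P18 ones for 37 (44.0%, against 11.8% of 4541 genes) and below for 0 (against 4.69%), and 14 of 58 tested were higher (24.1%, against 2.88%). Among the 55 members chosen by their P18 values, which works against a higher adult value, the adult libraries were above all P18 ones for 12 in flow-through (21.8%, against 5.80% of 5427 genes) and for 8 in J2 (14.5%, against 4.85%), and below for 0 in both (against 5.53% and 5.12%). The libraries of the 2 fractions may come from the same tissue, so they are not independent samples of the ages.

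By the mean of their 2 differences with age, the first 5 members that stood apart in both fractions were short protein-coding loci of 1401 to 2306 bp. Their 250 bases before the start, from RefSeq on GRCm38.p6, are shown because these genes were at or near 0 in every P18 library and present in adult in both kinds of RNA. They are read in the direction of the gene at chr19:42051978-42052227 (+), chr7:125368611-125368860 (+), chr4:39450043-39450292 (+), chr3:40902502-40902751 (-) and chr4:137453046-137453295 (+), in this order. Capitals mark CAGTTA or CAGTTG, core letters bound by MYB factors such as the spermatocyte regulator MYBL1, and TATAAA, the TATA box, each searched on both strands, so that TTTATA is a match.
4933411K16Rik: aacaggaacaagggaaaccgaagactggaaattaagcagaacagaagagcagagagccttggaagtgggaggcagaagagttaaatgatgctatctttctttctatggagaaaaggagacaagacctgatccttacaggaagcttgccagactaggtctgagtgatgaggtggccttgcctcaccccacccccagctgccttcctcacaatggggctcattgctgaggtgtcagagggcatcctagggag
4930571K23Rik: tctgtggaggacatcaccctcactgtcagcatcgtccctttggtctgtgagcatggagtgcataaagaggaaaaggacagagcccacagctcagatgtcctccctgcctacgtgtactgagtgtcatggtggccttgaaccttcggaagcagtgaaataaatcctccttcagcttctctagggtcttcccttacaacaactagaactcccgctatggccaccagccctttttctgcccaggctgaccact
1700009N14Rik: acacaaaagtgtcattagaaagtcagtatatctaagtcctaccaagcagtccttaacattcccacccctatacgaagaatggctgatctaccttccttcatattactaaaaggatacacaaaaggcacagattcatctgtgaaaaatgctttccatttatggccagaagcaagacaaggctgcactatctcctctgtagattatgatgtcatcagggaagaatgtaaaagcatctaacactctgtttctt
1700034I23Rik: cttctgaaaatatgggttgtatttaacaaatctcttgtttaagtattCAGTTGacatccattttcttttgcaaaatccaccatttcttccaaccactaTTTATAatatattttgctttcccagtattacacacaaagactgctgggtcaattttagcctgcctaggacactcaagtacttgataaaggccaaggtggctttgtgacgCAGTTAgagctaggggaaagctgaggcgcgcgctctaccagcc
1700013G24Rik: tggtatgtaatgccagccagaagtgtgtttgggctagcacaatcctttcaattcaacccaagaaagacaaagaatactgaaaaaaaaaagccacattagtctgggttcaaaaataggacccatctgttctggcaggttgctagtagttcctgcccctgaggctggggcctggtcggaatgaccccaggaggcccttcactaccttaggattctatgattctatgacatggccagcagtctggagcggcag
Only 1700034I23Rik held matches in these bases, at 203 and 43 bases before the start for the MYB letters and at 152 for the TATA box. TGACGTCA, the cAMP response element bound by the spermatid regulator CREM, was in none of the 5. Over the 112 promoters of the 91 members in the table, each from 250 bases before to 50 after the start, the MYB letters were in 33.0% against 22.1% of all 32851 promoters (and in 1 of 17, or 5.88%, for members at 0 throughout P18), the cAMP response element in 1.79% against 1.79%, and the TATA box in 10.7% against 13.6%. A relaxed element, TGACGTNA, which includes TGACGTCA, was in 2.68% against 2.93%. Promoters of members that met the level in the adult libraries only had a median of 3 CpG dinucleotides, and those of members that met it within P18 had 11, beside 7 over all promoters. These are counts of letters and show no binding.

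4933411K16Rik was at 0 in all 12 P18 libraries, at 32.7 and 96.8 in adult flow-through and at 177 and 106 in adult J2 (limma adjusted p = 0.0024 and 0.00028). 4930571K23Rik was likewise at 0 throughout P18, at 33.2 and 67.7 in adult flow-through and at 144 and 82.9 in adult J2. 1700009N14Rik was at 16.7 and 87.6 in adult flow-through, at 75.6 and 57.4 in adult J2, and at 0 at P18. No fold is given for these, since the reference group is listed at 0. 1700013G24Rik, also at 0 at P18, was at 25.5 and 92.5 in adult flow-through and at 41.1 and 23.6 in adult J2. 1700034I23Rik was at 2.30 in 1 wild-type P18 flow-through library, at 0.205 in 1 knock-out J2 library and at 0 in the other 10, and at 64.6 and 41.7 in adult flow-through and 36.6 and 89.4 in adult J2. On the log2(value + 1) scale its flow-through difference was 5.15 (SE 0.90, limma adjusted p = 0.010). The ages stand apart for all 5 genes in both fractions. Over the members tested, the adult libraries lay above all 6 P18 libraries for 38 of 83 in flow-through (10.5% of genes) and 49 of 102 in J2 (11.3%), and below for 0 and 0 (4.64% and 4.3%), counts in which the level rule again has a part. 4930571K23Rik lies 19075 bp from another member, the lncRNA 4933440M02Rik, which was present at P18 in all 12 libraries and did not pass the test. The only other members within 50000 bp of each other were 4933409G03Rik and 4932414N04Rik on chromosome 2, 40328 bp apart, and neither passed.

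**Figure D3:**
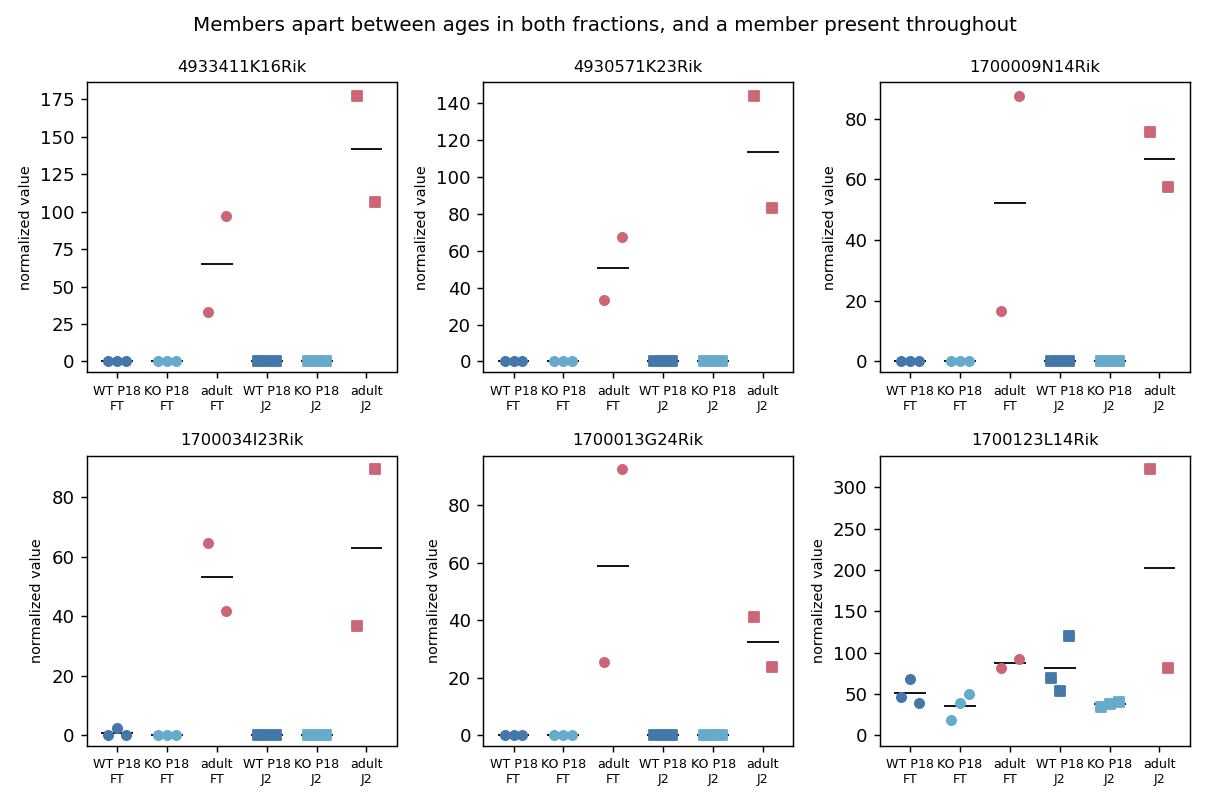
Normalized value in every library for the 5 members above and for 1700123L14Rik, by condition and fraction; points are libraries, bars are group means, and each panel has its own scale. The 5 genes lie at or near 0 in the 12 P18 libraries and between 16.7 and 177 in the 4 adult libraries, whereas 1700123L14Rik is present throughout.

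Other members were called in J2 with values that differed widely between the 2 adult libraries. 4930503B20Rik, also named Samd13, was at 361 and 31.9 in adult J2, at 0 and 8.99 in adult flow-through, and at 0 in all P18 libraries. 1700003E24Rik, a pseudogene on the X chromosome, was at 298 and 24.3 in adult J2 and at 4.80 and 7.07 in adult flow-through, with 0.467 its only value above 0 at P18. The first adult J2 library was the higher for both genes. 4921507P07Rik (TISP74), at 56.3 and 165 in adult J2 against 0.886, 0 and 0 in wild-type J2, differed by 6.30 on the log2(value + 1) scale (SE 1.0, limma adjusted p = 0.0027). In flow-through it was at 29.4 and 88.1 against 6.74, 4.31 and 7.35, and did not pass (adjusted p = 0.39). 4932415D10Rik was at 61.8 and 134 in adult J2, 1700001J03Rik at 78.1 and 52.4, and 4921528I07Rik at 35.2 and 95.8, and these 3 were at 0 in wild-type J2. Also called in J2, and picked out for their gene names after their values were seen, were 1700019D03Rik (smAKAP), an anchoring protein for protein kinase A, at 69.4 and 36.1, and 1700015G11Rik (Ccdc179), a coiled-coil gene, at 38.8 and 60.7. Both were at 0 in all 6 P18 J2 libraries.

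The members called in flow-through included several that were also called in J2. 1700003F12Rik was at 79.6 and 50.8 in adult against 0, 2.23 and 0 in wild type, a difference of 5.45 on the log2(value + 1) scale (SE 0.93, limma adjusted p = 0.0081). 1700001K19Rik was at 36.9 and 40.7, 1700012A03Rik at 44.2 and 27.4, 1700016H13Rik at 21.3 and 28.7, and 1700001C19Rik at 14.6 and 36.9, each against 0 in the 3 wild-type libraries. A P18 value of 0 in flow-through allows up to 24.9 units in the shallowest library, so adult values such as 14.6 and 21.3 lie within what that library could miss. They lie above the 6.01 units allowed in the wild-type library where 1 read was worth least. In J2 the limit is 1.55 units, and the same 4 genes were at 22.7 and 19.1, 43.3 and 34.9, 31.9 and 48.5, and 82.8 and 30.6 there.

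Over the members tested, the median difference between adult and wild-type P18 was 1.30 on the log2(value + 1) scale in flow-through, against 0.28 over all genes, and 2.41 against 0.33 in J2. The level rule has a part in these medians, which were 0.76 and 1.08 for members that met it within P18 and 4.34 and 4.99 for those that met it in the adult libraries only. Members listed at 0 enter at the pseudocount, and with a pseudocount of 5 the medians fell to 0.84 and 1.62. Quantile normalization moved the median of all genes from 0.28 to -0.10 and from 0.33 to -0.14, and left the members at 0.89 and 2.08. Of the 74 members tested in both fractions, 51 were above 0 in both (68.9%, against 38.1% of 5212 genes) and 5 below 0 in both (6.76%, against 22.5%), where the genes were not held to the level rule. Among those that met the level within P18, 22 of 44 members were above 0 in both (50%, against 32.2% of 4200 genes) and 5 below (11.4%, against 25.8%). Among those that did not pass, the largest differences were 4.10 for 1700019A02Rik, 3.86 for 4930590J08Rik and 3.78 for 1700086L19Rik in flow-through, and 3.96 for 1700129C05Rik, 3.82 for 4921501E09Rik and 3.79 for 1700006A11Rik in J2. Below 0 they were -2.91 for 1700066M21Rik, -2.10 for 4930447C04Rik and -2.03 for 1700102P08Rik in flow-through, and -3.96 for 4931417E11Rik, -2.78 for 4933404O12Rik and -2.09 for 4930579G24Rik in J2.

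**Figure D4:**
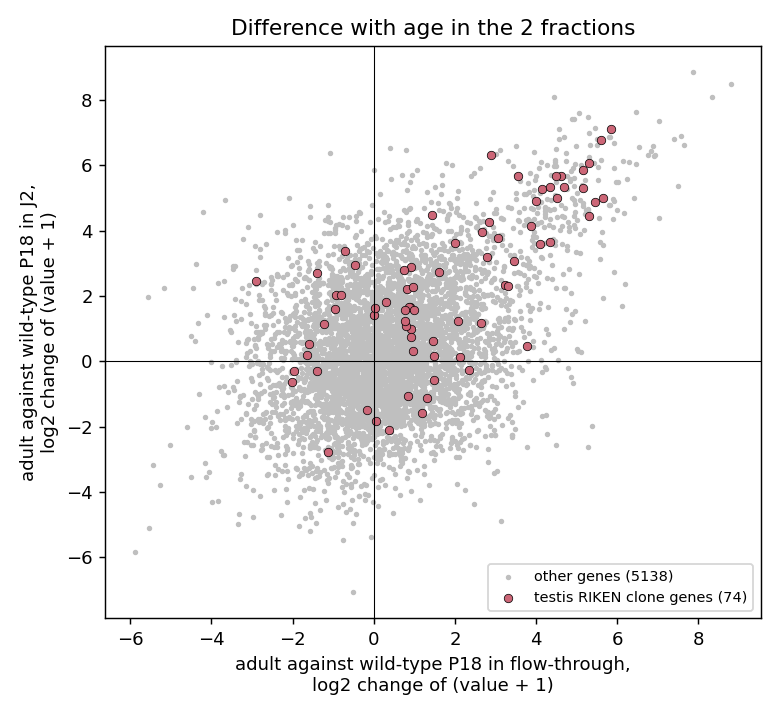
Difference between adult and wild-type P18 as the log2 change of (value + 1), in flow-through (horizontal) and J2 (vertical), for 74 members and 5138 other genes tested in both fractions; each point is a gene. The members lie mostly to the upper right, with 51 above 0 in both fractions and 5 below 0 in both.

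By class, 24 of 63 protein-coding members tested were higher in adult J2, 6 of 26 lncRNAs, 1 of 4 pseudogenes and 3 of 9 with no RefSeq entry. In flow-through these counts were 16 of 54, 2 of 20, 0 of 3 and 0 of 6. The difference between classes was not tested. For comparison, 5 of 45 RIKEN clone genes with other prefixes were higher in adult J2 and 2 of 44 in flow-through, beside 5.07% and 3.08% of all genes tested. The level was met within P18 by 46 of the 59 genes with other prefixes and by 55 of the 112 members. How genes met the level rule therefore has a part in the counts by class and prefix, and nothing is read from them. Spermatid markers were higher for 12 of 15 in J2 and 9 of 14 in flow-through. Of the markers, 0 of 9 spermatocyte genes passed in J2 and 0 of 10 in flow-through, and the part of any cell type in the members' difference was not tested. These calls rest on 2 adult libraries. Of the 34 members called in J2, 23 were at 0 in all 6 P18 J2 libraries, and of the 18 called in flow-through 11 were at 0 in all 6 P18 flow-through libraries. Leaving out either adult library ended all members' calls of a higher value in its fraction, as did testing without a filter on low values, and robust empirical Bayes ended all of those in flow-through (31 were made in J2). Leaving out the second adult J2 library left 1 call, of 4931417E11Rik as lower.

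J2 against flow-through within 1 condition compares captured with unbound RNA. The series holds no mock capture or input library, so uptake by the antibody cannot be told apart from carry-over. In wild-type P18 testis, 1 of 112 members was higher in J2 and 0 lower (limma, 0.525% and 0.378% of 9526 genes). This was 4931417E11Rik, a short protein-coding gene on chromosome 6, at 104, 266 and 73.0 in J2 against 4.17, 9.91 and 0 in flow-through. The difference was 5.05 on the log2(value + 1) scale (SE 1.14, adjusted p = 0.045). Every J2 library lay above every flow-through library. In the knock-out it was at 43.2, 55.9 and 20.7 in J2 and at 3.90, 5.71 and 4.48 in flow-through, again without overlap, and the difference of 2.75 (SE 1.14) did not pass (adjusted p = 0.37). In adult testis the J2 libraries were at 0.724 and 37.8 and the flow-through libraries at 6.34 and 10.3, which overlap. The wild-type call was lost in 5 of the 6 fits that left out 1 library, and the adjusted p over all alternatives ran from 0.019 to 0.16.

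In adult testis, 2 members were higher in J2 and 0 lower (0.147% and 0.168% of genes), both lncRNAs. They reached the level of 20 in the 2 adult J2 libraries alone, so they are members through the group in which they are high, and nothing is read from this count. 4930525G20Rik was at 27.5 and 23.1 in adult J2 and at 0 in both adult flow-through libraries, with 1.79 in 1 wild-type P18 flow-through library its only other value above 0 (limma adjusted p = 0.0021). 4933438K21Rik was at 26.2 and 35.2 in adult J2 and at 0 and 2.19 in adult flow-through (adjusted p = 0.024). A value of 0 in adult flow-through allows up to 14.5 units in the first library and 6.42 in the second, so the depth of flow-through limits how far these differ. 4930525G20Rik, on chromosome 13 from 67796594 to 67830985 on the minus strand, overlaps Zfp273, a zinc finger gene, and Gm10037 on the opposite strand. The kit marks strand, but the counting settings are not given in the sources used here, so reads of these genes may be shared. It is the only printed member whose promoter held the cAMP response element, in capitals, 54 bases before the start at chr13:67830986-67831235 (-).
4930525G20Rik: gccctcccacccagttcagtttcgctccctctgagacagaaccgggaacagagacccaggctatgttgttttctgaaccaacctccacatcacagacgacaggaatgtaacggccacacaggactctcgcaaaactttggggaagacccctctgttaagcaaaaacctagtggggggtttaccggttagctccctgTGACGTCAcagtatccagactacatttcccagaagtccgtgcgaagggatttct
In the knock-out, 0 members passed in either direction (0.168% higher and 0.189% lower over all genes). At an unadjusted p under 0.05 by limma, 6 of 112 members were higher and 5 lower, against 457 and 637 of 9526 genes. Without 1 adult library, 4930525G20Rik kept its call in 2 of 4 fits and 4933438K21Rik in 1 of 4, and in fits to the 2 adult groups alone neither passed (adjusted p = 0.60).

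**Figure D5:**
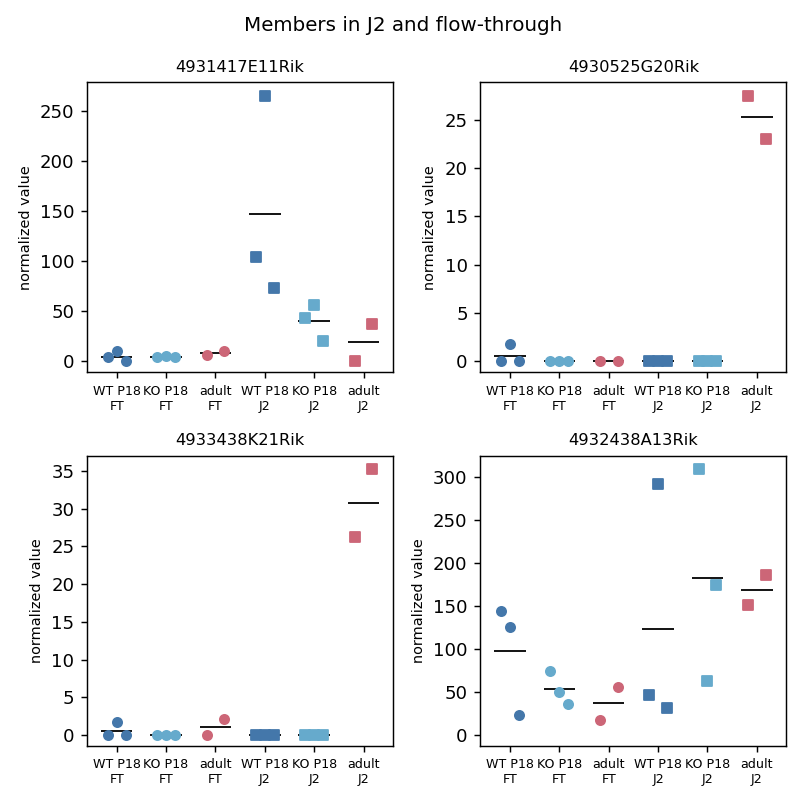
Normalized value in every library for the 3 members higher in J2 than in flow-through and for 4932438A13Rik, by condition and fraction; points are libraries and bars are group means. 4931417E11Rik is highest in wild-type P18 J2 (73.0 to 266), and 4930525G20Rik and 4933438K21Rik are near 0 outside adult J2 (23.1 to 35.2).

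The 2 adult J2 libraries lay above both adult flow-through libraries for 39 of 112 members (34.8%, against 18.4% of genes) and below for 10 (8.93%, against 17.3%). Here the level rule again had a part, since 34 members needed the adult J2 libraries to meet it. Among the 55 members chosen by their P18 values alone, the adult J2 libraries were above for 15 (27.3%, against 19.2% of genes chosen so) and below for 6 (10.9%, against 18.7%). At P18 the counts lay near the background: 8 above and 6 below in wild type (7.08% and 8.3% of genes) and 9 above and 10 below in the knock-out (6.95% and 11.1%). The members' median difference was 0 in wild type, 0 in the knock-out and 0.73 in adult, against -0.05, -0.15 and 0.05 over all genes. With a gene on the opposite strand, 22 members had an adult median of 0.84, and the 69 without one had 0.69.

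Whether the J2 difference itself changed with age was tested as an interaction over all 16 libraries. It passed for 0 of 9526 genes and 0 members by limma, with 316 genes higher and 198 lower in adult at an unadjusted p under 0.05 (12 members higher and 1 lower). The estimate was 5.20 for 4930525G20Rik (SE 0.92, adjusted p = 0.18) and -5.21 for 4931417E11Rik (SE 1.80, adjusted p = 0.79). Without the second adult flow-through library, 43 genes and 7 members passed as higher. The interaction with genotype also passed for 0 genes and 0 members (208 and 247 genes, and 4 and 2 members, at an unadjusted p under 0.05).

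The comparison of Dicer knock-out with wild type at P18 is the study's genotype comparison at 18 days. No member passed in flow-through (0 of 83) or in J2 (0 of 102), and neither did any gene (0% of 7141 and 0% of 6882, limma). At an unadjusted p under 0.05, 1 member was higher and 3 lower in flow-through (332 and 104 genes), and 4 were higher and 1 lower in J2 (291 and 149 genes). The 3 knock-out libraries lay above the 3 wild-type libraries for 3 members and below for 5 in flow-through (7.53% and 3.04% of genes), and above for 3 and below for 9 in J2 (6.12% and 3.78% of genes). The lncRNA 1700110I01Rik was at 9.05, 9.80 and 8.52 in wild-type flow-through and at 0, 1.32 and 0 in knock-out, without overlap (adjusted p = 0.79). Since 1 read is worth up to 8.31 units there, these are values of few reads. In J2 it was at 39.6, 28.6 and 4.84 against 0.691, 6.18 and 0, which overlap. 4933402E13Rik, a protein-coding gene on the X chromosome, was at 98.9, 18.9 and 80.4 in knock-out J2 against 1.05, 9.98 and 6.61 in wild type, a difference of 3.30 (SE 1.09) that did not pass (adjusted p = 0.71). 4933402N22Rik was at 28.8, 2.81 and 39.2 in knock-out J2 against 0, 0 and 2.94. The genotypes stand apart for 4933402E13Rik and overlap for 4933402N22Rik. 1700028P14Rik was at 0 in all 3 knock-out J2 libraries and at 14.7, 13.3 and 0.849 in wild type (adjusted p = 0.74). Spermatogonial markers, 7 genes, summed to 117 to 171 in knock-out J2 against 35.4 to 81.7 in wild type, and spermatocyte markers to 624 to 994 against 977 to 2093. The genotypes overlapped for the spermatocyte list in J2, and for both lists in flow-through. Spermatogonial sums there were 29.3 to 276 in knock-out against 36.6 to 127 in wild type, and spermatocyte sums 515 to 873 against 597 to 742. The part of these markers in the members' values was not tested.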

How the data were processed

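The study sequenced J2-bound and flow-through RNA of mouse testis in 16 libraries. The deposited values are a normalized count signal per Ensembl gene, made by the authors; FastQC, Trimmomatic, Salmon, DESeq2 and mm10 are named in the submitters' processing notes, and versions and settings are not given in the sources used here. Library scaling carries over to every level, and reads of similar genes may be divided between them. All 16 columns were matched to a library by label (0 left over), and 35446 identifiers had a symbol and 474 none. A pseudocount of 1 was added, log2 was taken, and limma 3.58.1 (R 4.3.3; trend, Benjamini-Hochberg, threshold 0.05) was fitted to genes with 10 or more in at least 2 libraries, over all 16 libraries for J2 against flow-through and the interactions, and over the 8 of a fraction for age and genotype. Checks on simulated data preceded these fits. Tables were handled with pandas 2.3.3 in Python 3.11.15. Members, lists and tests were chosen with earlier results of these data known. Named members were the 15 with the highest mean, those called (up to 10 a direction), the 3 largest not called each way, those at 0 in all libraries of 1 fraction and at a mean of 20 or more in the other (0 found), those apart between ages in both fractions (up to 5) and those nearest the level of 20; any other is said to be chosen after its values. Alternatives were pseudocounts of 5 and 0.5, no filter, a filter at 20, quantile normalization, a common total without mitochondrial genes and the 10 highest features, robust empirical Bayes, a replicate block, fits to 2 groups alone, and each library left out. Proteins were not analysed here.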

Additional observations from a re-analysis of the deposited data

How the results depend on the processing

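Each adult group has 2 libraries, and a flow-through value of 20 stands for few reads, which limits the results that rest on them. The level rule gave 205 members at a value of 10 and 36 at 50, against 112 at 20. In the column names, 1 J2 and 1 flow-through library share a code, and the deviations of such libraries from the group means correlated at -0.026 to 0.031. With few reads behind many flow-through values, this cannot show whether libraries that share a code came from the same tissue. With these codes as a replicate block, J2 against flow-through gave 7 genes higher and 17 lower in wild type (0 members), 4 higher in the knock-out, and 2 higher in adult (1 member), and the interactions gave 0.

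Counts that moved by more than 1.5 times follow, and the cause was not tested. For J2 against flow-through in wild type (50 genes higher, 36 lower, 1 member higher), no filter gave 22, 20 and 0, a pseudocount of 0.5 gave 0 members, the common total without mitochondrial genes and the 10 highest features gave 30 higher and 0 members, and fits to the 2 groups alone gave 23 higher. In the knock-out (16 genes higher), the count was 25 with a pseudocount of 5, 8 with 0.5, 8 with no filter, 42 with quantile normalization and 41 with the 2 groups alone. In adult (14 genes and 2 members higher, 16 genes lower), a pseudocount of 5 gave 30 genes and 6 members, a pseudocount of 0.5 gave 1 member, no filter gave 195 higher and 56 lower, quantile normalization gave 26 higher, robust empirical Bayes gave 1 gene and 0 members, and the 2 groups alone gave 0 and 0. For the age interaction (0 genes), no filter gave 97 higher and 13 lower with 1 member, and a filter at 20 gave 2 with 1 member. For age in flow-through (220 genes higher, 11 lower, 18 members higher), no filter gave 0, 0 and 0, a filter at 20 gave 123 and 10 members, robust empirical Bayes gave 2, 2 and 0, quantile normalization gave 19 lower and the 2 groups alone gave 4 lower. For age in J2 (349 higher, 27 lower, 34 members higher), no filter gave 0, 0 and 0, a filter at 20 gave 207, quantile normalization gave 48 lower and the 2 groups alone gave 12 lower. For genotype in J2 (0 genes), the 2 groups alone gave 1 lower.

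With 1 library left out, an arm of 1 library is assumed to vary like the others. J2 against flow-through then gave 12 to 40 genes higher, 15 to 43 lower and 0 to 1 member higher in wild type, 4 to 15 higher and 15 to 20 lower in the knock-out, and 1 to 59 higher, 10 to 29 lower and 0 to 7 members higher in adult. The age interaction gave 0 to 43 genes and 0 to 7 members. Age gave 0 to 240 genes higher, 4 to 13 lower and 0 to 19 members higher in flow-through, and 1 to 340 higher, 17 to 30 lower, 0 to 34 members higher and 0 to 1 lower in J2. Genotype in J2 gave 0 to 2 genes lower. Of the single members named, 1700102P08Rik changed direction in flow-through with age, from -2.03 to a range of -4.14 (without the second adult library) to 0.084 (without the first), while 964 of their values kept direction and side, 51 lost the threshold and 17 gained it.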
